A study of Mus musculus with 22 samples.

Results

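RNA from whole ear specimens of mice labelled Socs3 cKO was compared between 10 weeks and 2 weeks of age. The comparison holds 8 of the 22 libraries of the series, 4 at each age, chosen by the genotype and age in their titles. All 8 carry the same label. They come from C57BL/6 mice with a conditional Socs3 knockout specific to keratin 5, a gene of basal keratinocytes, which the submitters refer to an earlier report of theirs. The protocols name no further agent or treatment. The wild type (WT) C57BL/6 libraries, 4 at 2 weeks and 3 at 10 weeks, enter only to test whether the change with age differed from that in WT. The question is how the ear of these mice changed as they grew, since the series takes SOCS3 loss in keratinocytes and the course of a chronic skin disease as its subject.

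The labels name keratinocytes as the source and ear as the tissue, and the protocol names ear specimens, which hold skin, muscle and cartilage. The keratinocyte keratins were abundant, with Krt5 at 838 to 2736 FPKM at 2 weeks and 2060.3 to 2749 FPKM at 10 weeks, and Krt14 at 2505 to 4321 and 2919.8 to 3939 FPKM. Markers of fibroblasts (summed level 10548 to 15594 FPKM at 2 weeks and 11619.5 to 18684 FPKM at 10 weeks) and of skeletal muscle (2906 to 5572 FPKM at 2 weeks and 816 to 1504 FPKM at 10 weeks) were also present, so the libraries are mixed tissue and not keratinocytes alone. In such bulk RNA, fewer cells of a type and less RNA per cell cannot be told apart, and deletion in keratinocytes does not remove Socs3 from the other cells of the ear.

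SOCS3 is a feedback inhibitor of cytokine signalling. Cytokines of the IL-6 family bind receptors that share the chain Il6st, activate JAK kinases and the transcription factor STAT3, and STAT3 in turn induces Socs3, whose protein blocks the receptor and its kinases. In skin, STAT3 in keratinocytes is known for its part in wound healing and in psoriasis-like disease, and cytokines such as IL-6, IL-17 and IL-36 act between keratinocytes and immune cells.

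Levels are in FPKM, fragments per kilobase of transcript scaled to the mapped fragments of a library, and follow the order of the replicate numbers. A change is the mean of log2(FPKM + 1) at 10 weeks minus that at 2 weeks, given with its standard error (SE). Its p comes from limma and is adjusted by Benjamini and Hochberg's method across every gene that was tested. Adding 1 makes the changes of genes with low FPKM look smaller. A gene was called where the adjusted p was under 0.05. Whether the 4 libraries of an age came from separate animals is not said in the labels, so these p-values measure the spread between libraries, which may be technical.

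The files list 21110 genes, and 13179 of them were tested, having 1 FPKM or more in 3 or more of the 8 libraries. A gene near 0 at 1 age could pass this filter through the libraries of the other age alone. Rises that needed their 10 week libraries to pass include Il1b, Clec4d, Cd4, Fcer1a, Sele, Areg, Adamts4 and Myl3. The falls of Krt84 and Actc1 needed their 2 week libraries. The filter thus bears on the counts of their lists. Of the tested genes, 582 (4.42%) were called, 311 higher (2.36%) and 271 lower (2.06%) at 10 weeks, and the median change of all tested genes was 0.08. Single libraries bear on both: without 2 week replicate 1 the median was −0.03 with 494 genes higher and 516 lower, and without 2 week replicate 2 it was 0.15. The libraries of the ages did not overlap for 1961 genes (14.9%), among them 580 of the called genes. Lack of overlap therefore adds little to a call where it is given below. Across genes the libraries correlated at r = 0.867 to 0.973 within 2 weeks, 0.945 to 0.978 within 10 weeks and 0.824 to 0.95 between the ages. The library 2 week replicate 1 stood apart, with a median of 5.87 FPKM over tested genes against 8.3 to 9.75 FPKM in the other 7, and with 27.6% of all FPKM in ribosomal protein genes against 14.3% to 21.6%. Without this library 1010 genes were called, and without 2 week replicate 2 it was 890. Leaving out any other library lowered the count, to 245 without 2 week replicate 3, 273 without 2 week replicate 4, and 237, 228, 246 and 423 without 10 week replicates 1 to 4. In all, 192 of the 582 genes were called whichever library was left out. The Y-linked gene Eif2s3y exceeded 10 FPKM in replicates 1 and 2 at each age and was at most 0.114 FPKM in replicates 3 and 4. Xist, which female cells express, held 18.75 to 25.57 FPKM in replicates 3 and 4 and at most 0.104 FPKM in replicates 1 and 2. Each age thus holds libraries of both sexes.

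Socs3 itself was higher at 10 weeks. The libraries labelled cKO held 1.25, 9.32, 12.6 and 3.51 FPKM at 2 weeks and 36.5, 29.8, 47.7 and 32.4 FPKM at 10 weeks. Every 10 week library exceeded every 2 week library, and within 2 weeks replicates 2 and 3 were higher than replicates 1 and 4. The change was 2.59 (SE 0.51, adjusted p = 0.023), a ratio of mean levels of 5.49, and the exact two-sided permutation test of the 8 libraries gave p = 0.0286, the smallest that 70 splits allow. The WT libraries held 10.2, 10.3, 10.3 and 9.71 FPKM at 2 weeks and 2.76, 4.81 and 2.02 FPKM at 10 weeks. The libraries labelled cKO thus go against the label of a deleted gene at 10 weeks, where all 4 exceed every WT library of either age. At 2 weeks they do so in part, since replicate 3 exceeds every WT library and replicate 2 is close to those of 2 weeks. Replicates 1 and 4 of 2 weeks lie below every WT library of that age. The WT libraries of 10 weeks stand apart from the others, as described below. The deletion concerns keratinocytes, so Socs3 of other ear cells enters these levels. All libraries are called by their label throughout. Socs3 was not called without 2 week replicate 4, or 10 week replicates 1, 2, 3 or 4 (adjusted p = 0.0529 to 0.0771), with changes of 2.44 to 2.68.

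Promoter sequences are shown for genes that turn up in the results below, because each holds a match to the STAT motif or to that of NF-kB, the factor that TNF and IL-1 activate. They come from RefSeq on GRCm38.p6. The deposited values refer to mm9 and carry no coordinates. The 250 bases before each annotated start were searched on both strands for a STAT motif (TTCNNNGAA), the NF-kB motif, an AP-1 motif (TGANTCA) and a cyclic AMP response element (TGACGTCA). Of 32851 such windows, 7.02% held the STAT motif, 7.25% the NF-kB motif, 6.75% the AP-1 motif and 1.55% the cyclic AMP element. Each sequence runs 5′ to 3′ on the strand of the gene, with the match in capitals. The Socs3 stretch (chr11:117969452-117969540, minus strand) holds a STAT match starting 154 bases before the start, and the Icam1 stretch (chr9:21015878-21015939, plus strand) one starting 42 bases before it.
Socs3: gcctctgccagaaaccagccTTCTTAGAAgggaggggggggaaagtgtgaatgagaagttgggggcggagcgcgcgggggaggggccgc
Icam1: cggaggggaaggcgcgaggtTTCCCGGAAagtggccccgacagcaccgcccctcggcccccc
The NF-kB motif searched is GGG, a purine, 2 bases of any kind, 2 pyrimidines and CC. The next 4 belong to genes among the largest rises and hold NF-kB matches: Il6 (chr5:30013050-30013113, plus strand), Cxcl1 (chr5:90891154-90891244, plus strand, 2 overlapping matches), Tnfaip2 (chr12:111442617-111442660, plus strand) and Tnfaip3 (chr10:19015411-19015555, minus strand, 2 matches). Tnfaip2, and Tnfaip3 in the match nearest its start, hold the motif on the opposite strand.
Il6: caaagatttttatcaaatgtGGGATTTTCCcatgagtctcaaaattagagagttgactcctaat
Cxcl1: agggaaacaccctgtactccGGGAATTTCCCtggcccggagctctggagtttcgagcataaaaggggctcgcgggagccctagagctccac
Tnfaip2: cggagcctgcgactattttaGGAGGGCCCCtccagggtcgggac
Tnfaip3: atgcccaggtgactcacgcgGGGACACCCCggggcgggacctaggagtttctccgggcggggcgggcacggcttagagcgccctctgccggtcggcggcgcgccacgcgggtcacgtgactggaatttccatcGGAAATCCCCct
Among the 12 genes with the largest rises, 10 had a promoter in the table (not Fosl1 or Spink7). Of those 10, 4 held the NF-kB motif (the 4 just shown), 3 the AP-1 motif (Il6, Tnfaip3 and Tnfaip6), 1 the STAT motif (Tnfaip6) and 1 the cyclic AMP element (Has1). Of the 12 largest falls, 10 had a promoter (not H19 or Sln), and Actc1 alone held any of these motifs, that of NF-kB. Cish and Bcl3, which rose in the lists of the pathway, were searched too and held none of these motifs, nor did the window of a second annotated start of Tnfaip3. Nfkbia, described at the end, was searched as well and held an NF-kB match. The pathway genes Osm, Clcf1, Il10, Il24, Socs2, Il10ra and Cebpd had no promoter to search. A match is a run of letters and not a site shown to be bound.

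Most tested ligands of the IL-6 and STAT3 pathway rose. Of 8 ligands tested, 5 rose and 0 fell, beside 2.36% of all genes that rose, and their median change was 1.35 beside 0.08 for all genes. Il6, the founding cytokine of the family, held 0.684, 0.0684, 1.35 and 0.123 FPKM at 2 weeks and 43.7, 42.8, 82.2 and 109 FPKM at 10 weeks. It was near 0 in every 2 week library and above 40 FPKM in every 10 week library, and its change was 5.46 (SE 0.37, adjusted p = 0.00013). Osm, which encodes oncostatin M, a cytokine of immune cells that acts on keratinocytes, went from 0.354, 0.142, 0.455 and 0.0958 FPKM to 2.81, 2.62, 3.58 and 3.54 FPKM, a change of 1.72 (SE 0.15, adjusted p = 0.000646). Clcf1, another cytokine of the family, changed by 1.52 (SE 0.25, adjusted p = 0.0115) and Il10, an anti-inflammatory cytokine that signals through STAT3, by 1.18 (SE 0.22, adjusted p = 0.0204). Il24, a cytokine of the IL-20 group that acts on keratinocytes, was listed at 0 in 3 of the 2 week libraries and held 1.66, 0.98, 5.75 and 2.53 FPKM at 10 weeks (change 1.72, SE 0.32, adjusted p = 0.0194). Il6, Osm and Il24 would not have passed the filter without their 10 week libraries, so the filter bears on the count of 5. Il6, Osm and Clcf1 were called in all 8 fits that leave a library out. Il10 was not called without 2 week replicates 3 or 4, or 10 week replicate 1 (adjusted p = 0.0534 to 0.0708). Il24 was not called without 2 week replicates 3 or 4 (adjusted p = 0.0607 to 0.0614) and was below the filter without 10 week replicates 1, 3 or 4. The count of 5 became 3 without 2 week replicates 3 or 4, or 10 week replicate 1. The other tested ligands, Lep, Il11 and Ctf1, differed by 0.96, 0.36 and −0.41 and were not called, and without 2 week replicate 1 the list held 1 fall. Lif, Il19, Il20, Il21, Il22, Il27 and Csf3 were below the filter, with Il22 at 0 to 0.0637 FPKM in the 8 libraries.

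Among receptors, kinases and inhibitors of the pathway, 3 of the 4 rises were in inhibitors. The median change of 21 genes tested was 0.53 (0.33 without 2 week replicate 1). Of them, 4 rose and 0 fell, beside 2.36% and 2.06% of all genes. Besides Socs3 they were Cish, a SOCS family inhibitor induced through STAT5, Socs2, an inhibitor of growth hormone signalling, and Il10ra, the ligand-binding chain of the IL-10 receptor. Cish held 1.61, 5.71, 4.2 and 4.61 FPKM at 2 weeks and 22.7, 22.6, 31.6 and 21.9 FPKM at 10 weeks without overlap, and changed by 2.42 (SE 0.29, adjusted p = 0.00269). Socs2 changed by 1.23 (SE 0.22, adjusted p = 0.0182) and Il10ra by 1.08 (SE 0.17, adjusted p = 0.009). Stat3 itself held 10.3, 40.5, 27.4 and 34.9 FPKM and then 43.7, 50.1, 60.3 and 32.2 FPKM. Its libraries overlapped and its difference of 0.82 (SE 0.39, adjusted p = 0.285) was not called. The receptor chains Il6st (0.64, SE 0.33, adjusted p = 0.328) and Il6ra (1.0, SE 0.57, adjusted p = 0.364) were not called either, nor were the kinases Jak1 (0.37, SE 0.15, adjusted p = 0.207) and Jak2 (0.41, SE 0.15, adjusted p = 0.166). Cish and Il10ra were called whichever library was left out. Socs2 was not called without 2 week replicates 3 or 4, or 10 week replicate 1 (adjusted p = 0.0515 to 0.0615), and the count of 4 became 2 without 2 week replicate 4, or 10 week replicate 1.

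**Figure D1:**
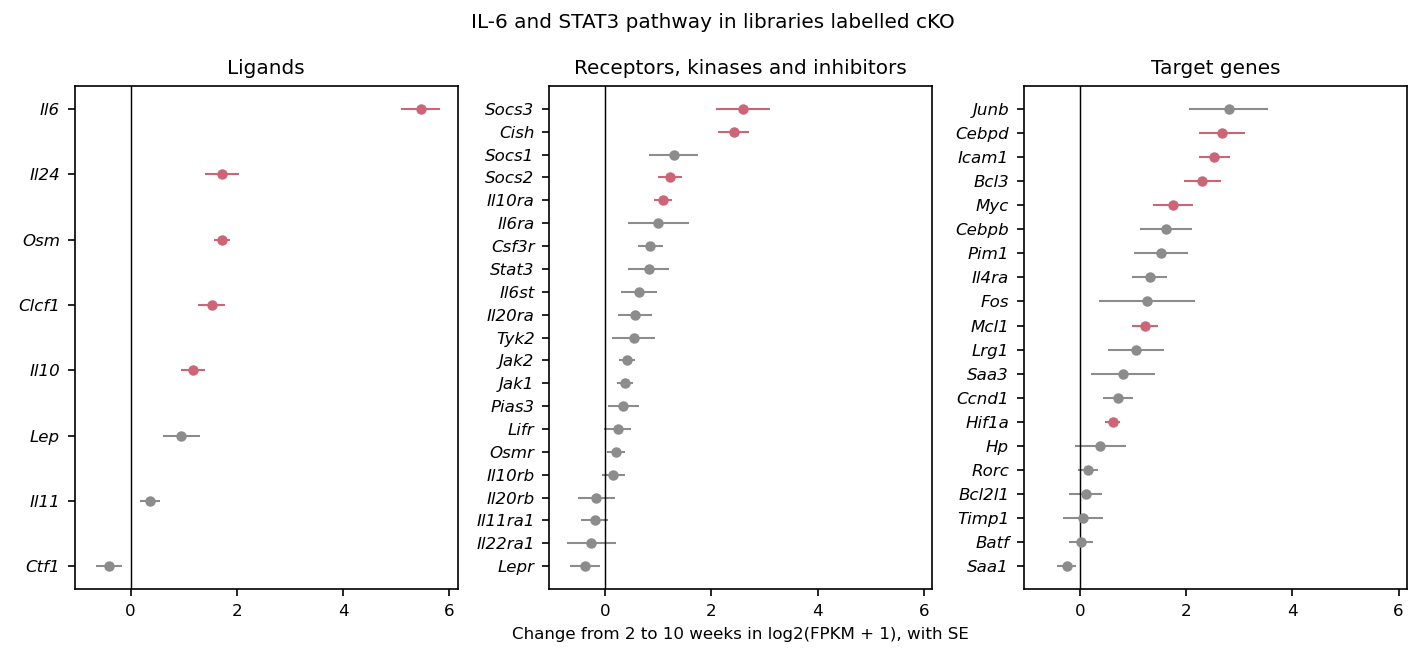
Change of each tested ligand, receptor, kinase, inhibitor and target gene of the IL-6 and STAT3 pathway in the libraries labelled cKO, 10 weeks minus 2 weeks on the log2(FPKM + 1) scale (n = 4 and 4). Points are the change, bars its SE, red genes rose (adjusted p under 0.05 in limma) and grey genes were not called. Il6 lies at 5.46, apart from the others, and no member of these lists fell.

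Of 20 tested target genes of the pathway, 6 rose and 0 fell, beside 2.36% and 2.06% of all genes, with a median change of 1.14. Cebpd, a transcription factor of the acute phase response, held 2.42, 9.45, 17.8 and 9.62 FPKM at 2 weeks and 63.9, 49.5, 52.6 and 67.3 FPKM at 10 weeks, a change of 2.68 (SE 0.44, adjusted p = 0.012). Icam1, the adhesion molecule that leukocytes bind and whose promoter stretch is printed above, held 6.78, 16.4, 13.6 and 12.7 and then 68, 68.3, 114 and 54.1 FPKM, a change of 2.53 (SE 0.30, adjusted p = 0.00242). Neither gene overlapped between the ages. Bcl3, a nuclear partner of NF-kB subunits, changed by 2.30 (SE 0.34, adjusted p = 0.00797). These 3 were called whichever library was left out. Myc, a driver of cell growth, changed by 1.75 (SE 0.37, adjusted p = 0.0318), Mcl1, a survival factor, by 1.22 (SE 0.25, adjusted p = 0.0271), and Hif1a, the hypoxia factor, by 0.62 (SE 0.15, adjusted p = 0.0473). Myc was not called without 2 week replicates 3 or 4, or 10 week replicates 1, 2 or 3 (adjusted p = 0.0956 to 0.103), Mcl1 without 2 week replicate 4, or 10 week replicates 1, 2, 3 or 4 (adjusted p = 0.0614 to 0.0916), and Hif1a without 2 week replicates 3 or 4, or 10 week replicates 1, 2, 3 or 4 (adjusted p = 0.0859 to 0.161) or with median-of-ratios scaling (adjusted p = 0.118). The count of 6 became 3 without 2 week replicate 4, or 10 week replicates 1, 2 or 3 and 10 without 2 week replicate 1. The acute phase genes Saa1 (−0.25, SE 0.17, adjusted p = 0.444), Saa3 (0.82, SE 0.61, adjusted p = 0.462) and Hp (0.39, SE 0.48, adjusted p = 0.64) were not called.

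The 12 largest rises among named genes were those of Il6, Cxcl1, Fosl1, Nr4a1, Ptgs2, Spink7, Has1, Akr1c18, Tnfaip3, Tnfaip2, Tnfaip6 and Il1b. Cxcl1 is a chemokine of neutrophils. Cxcl1 held 3.84, 3.38, 6.03 and 0.652 FPKM at 2 weeks and 101, 109.5, 217 and 222 FPKM at 10 weeks, a change of 5.27 (SE 0.45, adjusted p = 0.000634). Fosl1, an AP-1 subunit, held 0.0575, 0.233, 0.272 and 0.499 FPKM and then 35.8, 45.8, 61.7 and 27.3 FPKM, a change of 5.06 (SE 0.26, adjusted p = 3.12e-05). In both genes every 10 week library was at least 10 times the level of every 2 week library. Ptgs2, the inducible cyclooxygenase, changed by 4.50 (SE 0.20, adjusted p = 2.89e-05), with 0.262 to 0.739 FPKM at 2 weeks and 28.7 to 42.1 FPKM at 10 weeks. Has1, a hyaluronan synthase, changed by 4.05 (SE 0.19, adjusted p = 2.89e-05), from 0.0711 to 0.536 FPKM to 17.6 to 26.4 FPKM. Neither overlapped between the ages, as the choice of the 12 rises required. Spink7, a serine protease inhibitor of epithelia, was listed at 0 in all 4 libraries of 2 weeks and held 5.63, 10.4, 43.8 and 24.4 FPKM at 10 weeks (adjusted p = 0.00317). Akr1c18, a steroid-metabolising reductase, held 0.624, 0.374, 0.246 and 0.899 FPKM and then 7.52, 6.52, 43.5 and 122 FPKM, a change of 4.0 (SE 0.80, adjusted p = 0.0258). Its 10 week libraries spread widely, and it was not called without 2 week replicates 3 or 4, or 10 week replicate 3 (adjusted p = 0.0667 to 0.0856). The remaining 11 of the 12 largest rises were called whichever library was left out.

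**Figure D2:**
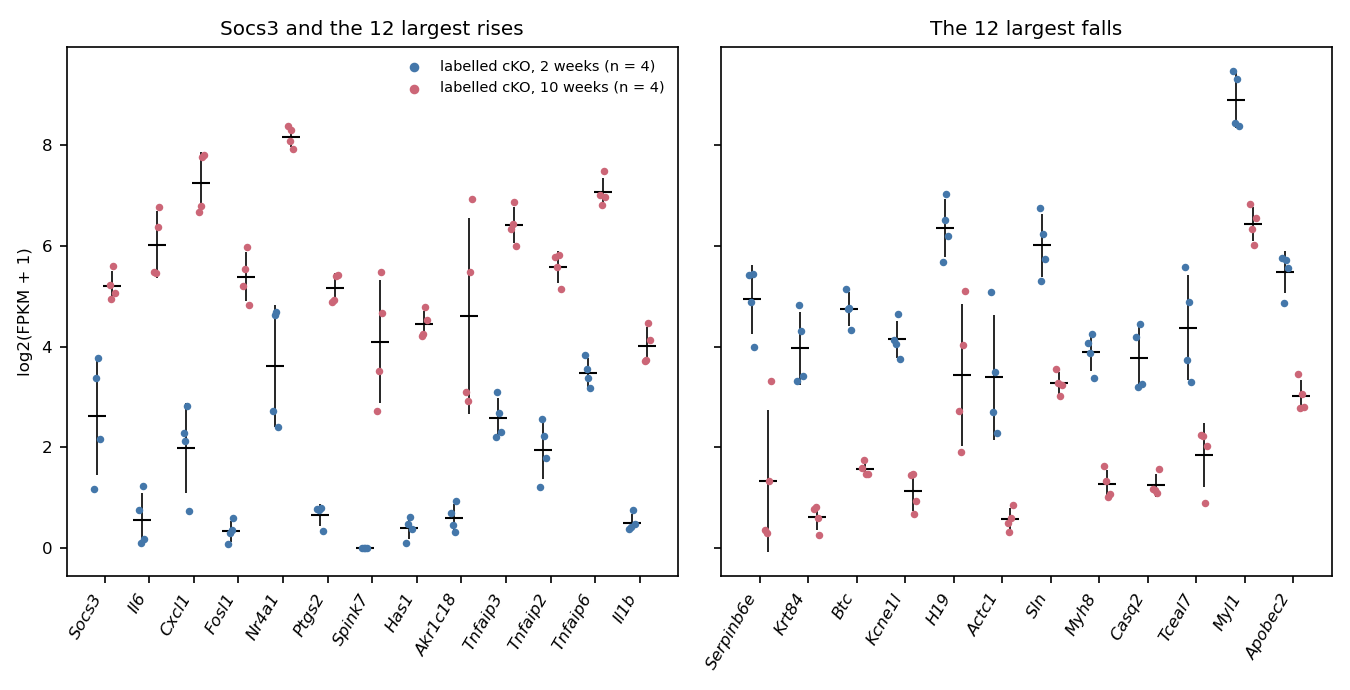
Level of Socs3 and of the 12 genes with the largest rises and the 12 with the largest falls in each library labelled cKO, as log2(FPKM + 1), at 2 weeks (n = 4) and 10 weeks (n = 4). Each point is a library and the tick with its bar is the mean and SD. The libraries of the ages do not overlap for any of these genes, a condition on which the 24 genes were chosen.

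Among these rises were 3 genes named for their induction by TNF. Tnfaip3, which encodes the ubiquitin-editing inhibitor A20 of NF-kB, held 3.6, 7.55, 5.42 and 3.95 FPKM at 2 weeks and 79.98, 85.98, 116 and 63.1 FPKM at 10 weeks, a change of 3.84 (SE 0.25, adjusted p = 0.00013). Tnfaip2 held 1.31, 4.92, 3.66 and 2.42 FPKM and then 54.1, 47.1, 55.6 and 34.2 FPKM, a change of 3.64 (SE 0.30, adjusted p = 0.000472). Tnfaip6, a secreted hyaluronan-binding protein of inflamed tissue, held 13.3, 10.7, 9.38 and 7.99 FPKM and then 128, 112, 178 and 124 FPKM, a change of 3.59 (SE 0.20, adjusted p = 6.85e-05). All 3 were higher in every 10 week library than in any 2 week library, as the choice of these rises required. The promoters of Tnfaip2 and Tnfaip3 are printed above.

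Immediate-early genes, which cells induce within minutes of a stimulus or of tissue handling, were higher at 10 weeks in part. Of 15 tested, 4 rose and 0 fell, all 15 changes were above 0, and the median change was 2.07, beside 2.36% called as rises and a median of 0.08 over all genes. Nr4a1, an orphan nuclear receptor, held 5.55, 23.6, 24.6 and 4.31 FPKM at 2 weeks and 332, 272, 314 and 242 FPKM at 10 weeks, a change of 4.57 (SE 0.51, adjusted p = 0.002). Btg2, an inhibitor of proliferation, changed by 2.07 (SE 0.32, adjusted p = 0.00941), Atf3, a stress transcription factor, by 2.73 (SE 0.49, adjusted p = 0.0172), and Ier3, a survival regulator, by 2.52 (SE 0.44, adjusted p = 0.0152). Fos held 39.7, 204, 228 and 8.38 FPKM and then 189.7, 136, 197 and 113 FPKM, and its difference of 1.26 (SE 0.90, adjusted p = 0.45) was not called. Replicates 2 and 3 of 2 weeks were high for Fos, as they were for Socs3, and replicates 1 and 4 were low. Nr4a1 and Btg2 were called whichever library was left out, Atf3 was not called without 10 week replicates 1, 2 or 3 (adjusted p = 0.0548 to 0.0592) and Ier3 not without 10 week replicates 2 or 3 (adjusted p = 0.0527 to 0.0528). The count of 4 became 2 without 10 week replicates 2 or 3 and 8 without 2 week replicate 2, and 12 without both 2 week replicates 2 and 3, an alternative chosen after the values were seen. The part of tissue handling in these changes was not tested.

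Among genes of the IL-1 and IL-36 family some rose and others fell. Of 18 tested, 3 rose and 2 fell, beside 2.36% and 2.06% of all genes, with a median change of −0.04 that turned above 0 without 2 week replicate 4 (0.09), or 10 week replicates 2 (0.07) or 3 (0.02). Il1b, the inflammasome-processed cytokine, held 0.298, 0.323, 0.689 and 0.387 FPKM at 2 weeks and 12.1, 12.3, 21.2 and 16.6 FPKM at 10 weeks, a change of 3.51 (SE 0.21, adjusted p = 9.18e-05). It passed the filter through 10 week libraries alone, so the filter bears on the count of 3 rises. Nlrp3, the sensor of that inflammasome, changed by 1.33 (SE 0.16, adjusted p = 0.00283) and the receptor Il1r1 by 0.72 (SE 0.15, adjusted p = 0.0273). By contrast Il1f9, which encodes the keratinocyte cytokine IL-36 gamma, held 64.7, 44.04, 59.6 and 56.6 FPKM and then 16.8, 19.3, 36.02 and 16.2 FPKM, a change of −1.37 (SE 0.26, adjusted p = 0.02). Il1a, which keratinocytes store and release on damage, changed by −1.14 (SE 0.23, adjusted p = 0.025). Il1b and Nlrp3 were called whichever library was left out. Il1r1 was not called without 2 week replicates 3 or 4, or 10 week replicates 1, 2, 3 or 4 (adjusted p = 0.0584 to 0.11), Il1f9 not without 2 week replicates 3 or 4, or 10 week replicates 1, 2 or 4 (adjusted p = 0.0519 to 0.0731) and Il1a not without 2 week replicates 3 or 4, or 10 week replicates 1, 2, 3 or 4 (adjusted p = 0.0505 to 0.0933), so the count of falls became 0 without 2 week replicates 3 or 4, or 10 week replicates 1, 2 or 4 and 1 without 10 week replicate 3.

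In the IL-17 and IL-23 axis 3 of 7 tested genes rose and 0 fell, beside 2.36% and 2.06% of all genes. The median change was 1.28 (0.84 and 0.77 without 10 week replicates 2 and 3). Ccl20, the chemokine that draws cells with the receptor CCR6, held 7.77, 6.29, 7.89 and 4.92 FPKM at 2 weeks and 44.6, 104, 87.2 and 78.2 FPKM at 10 weeks, a change of 3.32 (SE 0.27, adjusted p = 0.000468). Nfkbiz, a nuclear regulator induced by IL-17 and IL-1, changed by 2.92 (SE 0.33, adjusted p = 0.00198), with 5.2 to 13.8 FPKM and then 41.8 to 97.6 FPKM. Il17a itself was low, with 0.0694, 0, 0.0616 and 0 FPKM at 2 weeks and 0.69, 2.66, 1.31 and 1.98 FPKM at 10 weeks, and changed by 1.31 (SE 0.22, adjusted p = 0.0129). Il17a passed the filter through 10 week libraries alone, so the filter bears on the count of 3. Il17a was below the filter without 10 week replicates 2, 3 or 4. Il17f, Il17c, Il23a, Il12b and Il23r were below the filter.

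Chemokines of neutrophils and monocytes rose for 6 of 15 tested genes and fell for 0, beside 2.36% and 2.06% of all genes. Their median change was 1.23. Ccl7 and Ccl2, which draw monocytes, changed by 3.45 (SE 0.35, adjusted p = 0.00118) and 3.32 (SE 0.31, adjusted p = 0.000864). Ccl7 held 22.1, 10.5, 21.5 and 11.5 FPKM at 2 weeks and 119, 137, 219.5 and 293 FPKM at 10 weeks, with no overlap. Cxcl2, a neutrophil chemokine, changed by 3.41 (SE 0.31, adjusted p = 0.000667) and Ccl8 by 1.98 (SE 0.33, adjusted p = 0.012). With Cxcl1 these were called whichever library was left out. Ccl4 changed by 1.28 (SE 0.24, adjusted p = 0.0203). It was not called without 2 week replicate 3 (adjusted p = 0.0735) and was below the filter without 10 week replicates 2, 3 or 4.

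Of 20 tested interferon response genes, 4 rose and 0 fell, beside 2.36% and 2.06% of all genes. All 20 changes were above 0, with a median of 0.59 (0.24 without 10 week replicate 3) beside 0.08 over all genes. Cxcl10, a chemokine of activated T cells, held 3.59, 1.41, 1.04 and 0.57 FPKM at 2 weeks and 17.9, 13.98, 58.4 and 31.2 FPKM at 10 weeks, a change of 3.47 (SE 0.47, adjusted p = 0.00469). Irf1, an interferon-induced transcription factor, held 12.4, 10.4, 11.5 and 9.52 FPKM and then 65.3, 61.9, 95.6 and 70.2 FPKM, a change of 2.62 (SE 0.18, adjusted p = 0.00013). Both were without overlap and were called whichever library was left out. Ifi27l2a changed by 1.52 (SE 0.28, adjusted p = 0.0177) and Cxcl9 by 1.09 (SE 0.21, adjusted p = 0.023). Ifi27l2a was not called without 2 week replicate 3, or 10 week replicates 1, 2 or 3 (adjusted p = 0.0554 to 0.0632) and Cxcl9 not without 2 week replicates 3 or 4, or 10 week replicates 2, 3 or 4 (adjusted p = 0.0548 to 0.0829), so the count of 4 became 2 without 2 week replicate 3, or 10 week replicates 2 or 3. The antiviral gene Isg15 held 4.72, 3.95, 51.1 and 6.22 FPKM at 10 weeks, where replicate 3 stood above the other 3, and 8.63, 6.13, 9.71 and 6.8 FPKM at 2 weeks, and it was not called (difference 0.22, SE 0.66, adjusted p = 0.849). Irf7, at 2.83, 3.02, 23.6 and 2.84 FPKM at 10 weeks, showed the same high replicate and was not called (difference 0.59, SE 0.58, adjusted p = 0.56).

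Complement and acute phase genes rose for 4 of 18 tested and fell for 0, beside 2.36% and 2.06% of all genes. Their median change was 0.71. Cfb, factor B of the alternative pathway, held 5.59, 10.3, 11.6 and 9.67 FPKM at 2 weeks and 43.3, 39.3, 47.3 and 58.4 FPKM at 10 weeks, a change of 2.25 (SE 0.23, adjusted p = 0.00123). C2, its counterpart in the classical pathway, changed by 1.20 (SE 0.18, adjusted p = 0.00802), and C3, the central component, by 2.42 (SE 0.43, adjusted p = 0.0157). C3 held 3.72, 16.8, 10.9 and 14.1 FPKM and then 83.4, 76.5, 48.2 and 37.7 FPKM. The receptor C5ar1 changed by 0.92 (SE 0.18, adjusted p = 0.0225). Cfb and C2 were called whichever library was left out, C3 was not called without 10 week replicates 1 or 2 (adjusted p = 0.0547 to 0.0573) and C5ar1 not without 2 week replicates 3 or 4, or 10 week replicates 1, 2 or 3 (adjusted p = 0.0691 to 0.0808). The count of 4 became 2 without 10 week replicates 1 or 2 and 7 without 2 week replicate 1, and without 2 week replicate 2 the list held 2 falls. Orm1, an acute phase protein, held 202 to 427 FPKM at 2 weeks and 140.3 to 234 FPKM at 10 weeks and was not called (difference −0.89, SE 0.27, adjusted p = 0.102).

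Markers of immune cells were higher at 10 weeks for some cell types, and the defining genes of others were near 0 at both ages. Of 19 monocyte and macrophage markers tested, 5 rose and 0 fell, beside 2.36% and 2.06% of all genes. Their median change was 0.66, and their summed level was 637 to 1210.1 FPKM at 2 weeks and 1141 to 1929.7 FPKM at 10 weeks. Cd14, a coreceptor for bacterial lipopolysaccharide, held 5.86, 5.09, 6.58 and 4.88 FPKM at 2 weeks and 22.3, 21.4, 25.99 and 37.96 FPKM at 10 weeks, a change of 2.05 (SE 0.21, adjusted p = 0.00122). It was called whichever library was left out. Mpeg1, a pore-forming protein of phagocytes, changed by 1.29 (SE 0.26, adjusted p = 0.0246), Cd68, a lysosomal protein, by 0.96 (SE 0.17, adjusted p = 0.0148), Itgam, an integrin of myeloid cells, by 0.84 (SE 0.19, adjusted p = 0.0411), and the receptor Csf1r by 0.71 (SE 0.15, adjusted p = 0.0309). Mpeg1 was not called without 2 week replicates 3 or 4, or 10 week replicates 1, 2, 3 or 4 (adjusted p = 0.056 to 0.0884), Cd68 not without 2 week replicates 3 or 4, or 10 week replicate 3 (adjusted p = 0.0544 to 0.0571), Itgam not without 2 week replicates 3 or 4, or 10 week replicates 1, 2, 3 or 4 (adjusted p = 0.0826 to 0.136) and Csf1r not without 2 week replicates 3 or 4, or 10 week replicates 1, 2, 3 or 4 (adjusted p = 0.0663 to 0.113). With median-of-ratios scaling Cd68 (adjusted p = 0.0701) and Csf1r (adjusted p = 0.0655) were not called, which left 3. The count of 5 became 1 without 2 week replicates 3 or 4, or 10 week replicate 3 and 2 without 10 week replicates 1, 2 or 4. Emr1, the macrophage marker F4/80, held 15.5, 10.6, 13.7 and 10.3 FPKM and then 15.2, 12.2, 17.2 and 22.6 FPKM and was not called (difference 0.38, SE 0.22, adjusted p = 0.364).

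Dendritic and Langerhans cell markers rose for 6 of 13 tested and fell for 0, beside 2.36% and 2.06% of all genes. Their median change was 0.78, and their summed level was 895 to 998 FPKM at 2 weeks and 1753 to 2690.1 FPKM at 10 weeks. Cd83, a marker of mature dendritic cells, held 4.7, 2.18, 2.73 and 2.04 FPKM at 2 weeks and 18.9, 18.96, 16.4 and 29.7 FPKM at 10 weeks, a change of 2.50 (SE 0.26, adjusted p = 0.00136). Ccr7, the receptor that leads them to lymph nodes, changed by 1.44 (SE 0.16, adjusted p = 0.00198). Both were called whichever library was left out. Cd74, the invariant chain of class II molecules, changed by 1.67 (SE 0.32, adjusted p = 0.0198), the class II chains H2-Ab1 and H2-Eb1 by 1.61 (SE 0.36, adjusted p = 0.0402) and 1.04 (SE 0.20, adjusted p = 0.0209), and Flt3, a growth factor receptor of dendritic cell precursors, by 0.70 (SE 0.17, adjusted p = 0.0478). Cd74 was not called without 2 week replicates 3 or 4, or 10 week replicates 1, 2 or 3 (adjusted p = 0.0545 to 0.0699), H2-Ab1 not without 2 week replicates 3 or 4, or 10 week replicates 1, 2, 3 or 4 (adjusted p = 0.0846 to 0.118), H2-Eb1 not without 2 week replicates 3 or 4, or 10 week replicates 1 or 2 (adjusted p = 0.0596 to 0.0724) and Flt3 not without 2 week replicates 3 or 4, or 10 week replicates 1, 2, 3 or 4 (adjusted p = 0.0981 to 0.146). The last 2 were also not called with scaling (adjusted p = 0.0812 and 0.0575), which left 4. The count of 6 became 2 without 2 week replicates 3 or 4, or 10 week replicates 1 or 2 and 3 without 10 week replicate 3. Cd207, the langerin of Langerhans cells, held 30.7, 20, 26.6 and 21.6 FPKM and then 44.9, 38.1, 29.4 and 47.1 FPKM and was not called (difference 0.66, SE 0.20, adjusted p = 0.111).

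Of the neutrophil markers 12 of 19 were below the filter, among them Mpo, Elane, Fpr1 and Trem1, none of them above 2.12 FPKM. Of 7 tested 1 rose and 0 fell, beside 2.36% and 2.06% of all genes. The rise was that of the C-type lectin receptor Clec4d, from 1.07, 0.807, 0.898 and 0.583 FPKM to 3, 2.27, 4.53 and 5.22 FPKM (change 1.33, SE 0.22, adjusted p = 0.012). Clec4d would not have passed the filter without its 10 week libraries, so the filter bears on the count of 1. S100a8, an alarmin of neutrophils and inflamed keratinocytes, held 164, 216, 118 and 234 FPKM at 2 weeks and 7.42, 13.4, 838 and 16.5 FPKM at 10 weeks. Its partner S100a9 held 88.8, 139, 87.5 and 192 FPKM and then 5.12, 13.8, 425 and 18.6 FPKM. In both genes 10 week replicate 3 was above every 2 week library and the other 3 libraries were below all of them. Their differences of −2.29 (SE 1.25, adjusted p = 0.348) and −2.04 (SE 1.10, adjusted p = 0.345) were not called. Without 10 week replicate 3 both were called as falls, S100a8 at −3.79 (adjusted p = 0.00168) and S100a9 at −3.32 (adjusted p = 0.0107), so the list held 2 falls. Without 10 week replicate 4 it held 2 rises. The summed level of the list was 382 to 567 FPKM at 2 weeks and 162 to 1384 FPKM at 10 weeks.

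Among T and NK cell markers 1 of 11 tested rose and 0 fell, beside 2.36% and 2.06% of all genes. It was Cd4, the coreceptor of helper T cells, from 0.951, 1.67, 0.762 and 0.846 FPKM at 2 weeks to 4.36, 3.52, 4.01 and 3.66 FPKM at 10 weeks (change 1.26, SE 0.17, adjusted p = 0.0048), and it was called whichever library was left out. Cd4 would not have passed the filter without its 10 week libraries, so the filter bears on the count of 1. Cd8a and Foxp3 were below the filter. The count became 2 without 2 week replicate 1 and 3 without 2 week replicate 2, and the summed level was 141 to 181 FPKM at 2 weeks and 166 to 259.9 FPKM at 10 weeks. Mast cell and basophil markers gave 2 rises and 0 falls among 9 tested. Fcer1a, the chain of the IgE receptor that binds IgE, held 0.163, 0.147, 0.29 and 0.265 FPKM and then 3.1, 2.72, 6.46 and 9.86 FPKM, a change of 2.29 (SE 0.32, adjusted p = 0.00582) called whichever library was left out. It passed the filter through 10 week libraries alone, so the filter bears on the count of 2 rises. Gata2, a transcription factor of mast cells and endothelium, changed by 1.37 (SE 0.33, adjusted p = 0.0498) and was not called without 2 week replicates 3 or 4, or 10 week replicates 1, 2, 3 or 4 (adjusted p = 0.099 to 0.144). The mast cell proteases Cma1 (−0.76, SE 0.36, adjusted p = 0.278), Mcpt4 (−0.37, SE 0.23, adjusted p = 0.399) and Cpa3 (−0.93, SE 0.37, adjusted p = 0.202) were not called, and the summed level of the list was 573 to 1129.9 FPKM at 2 weeks and 427 to 832 FPKM at 10 weeks. Among B cell markers 0 of 2 tested and among eosinophil markers 0 of 3 tested were called, and Ms4a1, Pax5, Prg2 and Epx were below the filter, with Pax5 at 0 in all 8 libraries. Without 10 week replicate 4 the B cell list held 1 rise.

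The median change of 16 endothelial markers was −0.0018 (−0.23 and 0.20 without 2 week replicates 1 and 2). Of these markers 3 rose and 0 fell, beside 2.36% and 2.06% of all genes. They were the adhesion molecules of activated endothelium, Vcam1 (1.26, SE 0.22, adjusted p = 0.0156), Selp (1.17, SE 0.26, adjusted p = 0.0405) and Sele (0.90, SE 0.19, adjusted p = 0.0291). Sele held 0.718, 1.41, 0.748 and 0.984 FPKM at 2 weeks and 2.75, 2.02, 3.67 and 2.25 FPKM at 10 weeks. The lineage markers Pecam1 (−0.37, SE 0.19, adjusted p = 0.307) and Cdh5 (0.03, SE 0.35, adjusted p = 0.968) were not called. Vcam1 was not called without 2 week replicates 3 or 4, or 10 week replicates 1 or 2 (adjusted p = 0.0532 to 0.0611), Selp not without 2 week replicates 1, 3 or 4, or 10 week replicates 1, 2 or 3 (adjusted p = 0.0514 to 0.13) and Sele not without 2 week replicates 3 or 4, or 10 week replicates 1, 2 or 3 (adjusted p = 0.0555 to 0.1), so the count of 3 became 0 without 2 week replicates 3 or 4, or 10 week replicates 1 or 2 and 1 without 10 week replicate 3. Without 2 week replicate 1 the list held 1 fall.

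In the epidermis the basal markers did not pass the test and several late differentiation genes were lower at 10 weeks. Of 12 basal keratinocyte markers 0 rose and 0 fell, with a median change of 0.48 that was 0.12 without 2 week replicate 1. Krt5 differed by 0.48 (SE 0.38, adjusted p = 0.49) and Krt14 by −0.02 (SE 0.28, adjusted p = 0.974), neither of them called. Of 23 spinous and granular markers, 0 rose and 3 fell, beside 2.36% and 2.06% of all genes, with a median change of −0.52. Hrnr, a filaggrin-like protein of the granular layer, held 262, 293, 313 and 282 FPKM at 2 weeks and 87.2, 109, 114 and 68.1 FPKM at 10 weeks, a change of −1.62 (SE 0.19, adjusted p = 0.00253). Flg2, another filaggrin-like protein, held 155, 171, 162 and 163 FPKM and then 62.4, 83.6, 68.1 and 64.8 FPKM, a change of −1.22 (SE 0.15, adjusted p = 0.00274). In both the libraries of each age lay close together and apart from the other age, and both were called whichever library was left out. Ivl, the cornified envelope protein involucrin, changed by −0.97 (SE 0.23, adjusted p = 0.0485). It was not called with scaling (adjusted p = 0.0808) or without 2 week replicates 3 or 4, or 10 week replicates 1, 2, 3 or 4 (adjusted p = 0.059 to 0.154). The count of 3 became 5 with scaling and 6 without 2 week replicate 1. Krt1 (−0.42, SE 0.78, adjusted p = 0.756) and Krt10 (0.37, SE 0.68, adjusted p = 0.755), the keratins of the spinous layer, were not called. Krt10 held 432, 3753, 2937 and 3898 FPKM at 2 weeks, lowest in replicate 1, and 2303, 3850.5, 3454 and 1675 FPKM at 10 weeks.

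Late cornified envelope genes, small proteins of the outermost living layer, fell for 11 of 17 tested and rose for 0, beside 2.06% falls among all genes, with a median change of −1.02. The 11 were all of the Lce1 group. Lce1m held 910, 449, 629 and 627 FPKM at 2 weeks and 312, 308, 179 and 268 FPKM at 10 weeks, a change of −1.28 (SE 0.27, adjusted p = 0.0307). Lce1a2 held 634, 472, 691 and 494 FPKM and then 295, 269.5, 225 and 201 FPKM, a change of −1.20 (SE 0.21, adjusted p = 0.0143), and Lce1k changed by −1.16 (SE 0.22, adjusted p = 0.0191). These genes are near copies of each other in 1 cluster, so reads may be split between them and their values are not independent. The count was not stable: it became 0 without 2 week replicate 3, or 10 week replicate 3, 1 without 10 week replicates 1 or 2, 2 without 2 week replicate 4 and 3 without 10 week replicate 4, was 4 with scaling and 1 without both 2 week replicates 2 and 3. Lce1m was not called without 2 week replicates 3 or 4, or 10 week replicates 1, 2, 3 or 4 (adjusted p = 0.0655 to 0.0942) or with scaling (adjusted p = 0.0619), Lce1a2 not without 2 week replicate 3, or 10 week replicate 3 (adjusted p = 0.0535 to 0.0554) and Lce1k not without 2 week replicate 3, or 10 week replicates 1, 2 or 3 (adjusted p = 0.067 to 0.0712). Lce3 genes, which are induced in damaged skin, were not called, and 10 week replicate 3 was high in them, as for Lce3f with 1.65, 3.37, 27.2 and 3.4 FPKM at 10 weeks and 6.78, 3.73, 7.79 and 7.11 FPKM at 2 weeks (difference −0.22, SE 0.64, adjusted p = 0.849).

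Among 21 enzymes of epidermal lipids and the barrier, 0 rose and 6 fell, beside 2.36% and 2.06% of all genes. Their median change was −0.28 (−0.46 without 2 week replicate 1 or 10 week replicate 3). Lipk, an acid lipase of the granular layer, held 37.6, 21.6, 34.2 and 30.5 FPKM at 2 weeks and 8.52, 9.9, 8.89 and 7.91 FPKM at 10 weeks, a change of −1.68 (SE 0.19, adjusted p = 0.00218), and was called whichever library was left out. Its relatives Lipn and Lipm changed by −1.38 (SE 0.26, adjusted p = 0.0189) and −0.94 (SE 0.20, adjusted p = 0.0318), Spink5, an inhibitor of skin proteases, by −0.97 (SE 0.19, adjusted p = 0.023), and the enzymes of long-chain lipid synthesis Elovl1 and Sptlc3 by −0.92 (SE 0.16, adjusted p = 0.0153) and −0.93 (SE 0.18, adjusted p = 0.0203). Lipn was not called without 2 week replicates 3 or 4, or 10 week replicates 1, 2 or 3 (adjusted p = 0.0646 to 0.0708), Lipm not without 2 week replicates 3 or 4, or 10 week replicates 1, 2, 3 or 4 (adjusted p = 0.0708 to 0.11), Spink5 not without 2 week replicates 3 or 4, or 10 week replicates 1, 2 or 3 (adjusted p = 0.0739 to 0.0878), Elovl1 not without 2 week replicates 3 or 4, or 10 week replicates 1 or 2 (adjusted p = 0.0549 to 0.067) and Sptlc3 not without 2 week replicates 3 or 4, or 10 week replicates 1, 2 or 3 (adjusted p = 0.0698 to 0.0799). Lipm (adjusted p = 0.0653) and Spink5 (adjusted p = 0.0503) were not called with scaling. The count of 6 became 1 without 2 week replicates 3 or 4, or 10 week replicates 1 or 2 and 2 without 10 week replicate 3. Abca12, the lipid transporter of lamellar granules, held 19.3, 21.8, 18.8 and 23.4 and then 15.3, 21.8, 26.7 and 13.2 FPKM and was not called (difference −0.16, SE 0.23, adjusted p = 0.69).

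Of 19 genes of hyperproliferation and wounding in keratinocytes, 3 rose and 2 fell, beside 2.36% and 2.06% of all genes. The 3 were growth factors that bind the EGF receptor. Hbegf held 2.32, 7.35, 6.53 and 3.11 FPKM at 2 weeks and 27.7, 28.9, 50.1 and 19.9 FPKM at 10 weeks, a change of 2.52 (SE 0.36, adjusted p = 0.00703), Areg changed by 1.29 (SE 0.22, adjusted p = 0.0132) and Ereg by 1.33 (SE 0.24, adjusted p = 0.0173). The 2 falls were Serpinb3a, a protease inhibitor (−1.42, SE 0.31, adjusted p = 0.0354), and Krt17, a keratin of the hair follicle and of stressed epidermis (−0.79, SE 0.16, adjusted p = 0.0288). Hbegf and Areg were called whichever library was left out. Ereg was not called without 2 week replicate 4, or 10 week replicates 2 or 3 (adjusted p = 0.058 to 0.064), Serpinb3a not without 2 week replicates 3 or 4, or 10 week replicates 1, 2 or 4 (adjusted p = 0.0854 to 0.11), and Krt17 not without 2 week replicates 3 or 4, or 10 week replicates 1, 2, 3 or 4 (adjusted p = 0.0519 to 0.111) or with scaling (adjusted p = 0.0506), so the count of falls became 0 without 2 week replicates 3 or 4, or 10 week replicates 1, 2 or 4. The stress keratins did not pass the test. Krt6b held 26.2, 56.3, 36.4 and 93.2 FPKM at 2 weeks and 28.3, 30.3, 632 and 31.9 FPKM at 10 weeks (difference 0.45, SE 0.94, adjusted p = 0.782). Krt16 held 342, 245, 244 and 404 FPKM and then 284, 293, 1134 and 306 FPKM (difference 0.45, SE 0.44, adjusted p = 0.56), and Krt6a differed by 0.44 (SE 0.52, adjusted p = 0.623). For all 3 keratins 10 week replicate 3 was above every other library, and the other 10 week libraries lay within the range of 2 weeks. Of 15 antimicrobial peptides and alarmins tested, 0 rose and 0 fell, and the number that fell was 1 without 2 week replicate 1, 2 without 2 week replicate 2 and 3 without 10 week replicate 3.

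Most skeletal muscle genes fell. Of 25 tested, 16 fell and 1 rose, beside 2.06% and 2.36% of all genes, 24 changes were below 0 and the median change was −1.71. The summed level of the list was 2906 to 5572 FPKM at 2 weeks and 816 to 1504 FPKM at 10 weeks. Myl1, a myosin light chain of fast fibres, held 707, 346, 641 and 334 FPKM at 2 weeks and 112, 79.5, 63.9 and 92.7 FPKM at 10 weeks, a change of −2.47 (SE 0.30, adjusted p = 0.00269). Pvalb, a calcium buffer of fast fibres, changed by −2.45 (SE 0.37, adjusted p = 0.00802), Myoz1, a protein of the sarcomere's Z line, by −2.44 (SE 0.28, adjusted p = 0.00218), and the fast myosin heavy chain Myh4 by −2.44 (SE 0.29, adjusted p = 0.00269). Ckm, the muscle creatine kinase, held 361, 142, 275 and 229 FPKM and then 73.4, 45.3, 39.5 and 46.3 FPKM, a change of −2.24 (SE 0.30, adjusted p = 0.0048). None of these overlapped between the ages, and with 8 more of the list they were called whichever library was left out. Tnni2, a fast troponin, fell with a change of −1.79 (SE 0.32, adjusted p = 0.0173), Actn2, an actinin of the Z line, with −1.68 (SE 0.32, adjusted p = 0.0203) and the giant protein nebulin, Neb, with −1.11 (SE 0.21, adjusted p = 0.0185). Tnni2 was not called without 2 week replicate 3, or 10 week replicates 2 or 3 (adjusted p = 0.0597 to 0.063), Actn2 not without 2 week replicates 3 or 4, or 10 week replicates 2, 3 or 4 (adjusted p = 0.0501 to 0.0744) and Neb not without 2 week replicates 3 or 4, or 10 week replicates 2, 3 or 4 (adjusted p = 0.0504 to 0.0663).

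Mb, the oxygen-binding myoglobin, went the other way within the muscle list. It held 31.1, 26.2, 45.3 and 68.1 FPKM at 2 weeks and 182, 135, 88.8 and 118 FPKM at 10 weeks, without overlap, a change of 1.64 (SE 0.32, adjusted p = 0.0228). It was not called without 2 week replicate 3, or 10 week replicates 1, 2 or 4 (adjusted p = 0.0512 to 0.0753). Acta1, the skeletal actin, held 117, 410.3, 518 and 359.6 FPKM and then 156, 90.6, 78.5 and 67.3 FPKM, where 2 week replicate 1 lay within the range of 10 weeks, and its difference of −1.71 (SE 0.46, adjusted p = 0.0736) was not called. The slow fibre troponins Tnnt1 (−0.12, SE 0.34, adjusted p = 0.844) and Tnni1 (−0.69, SE 0.39, adjusted p = 0.361) were not called.

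Of the 12 largest falls among named genes, 7 were Actc1, Sln, Myh8, Casq2, Tceal7, Myl1 and Apobec2. Myh8, the perinatal myosin heavy chain, held 15.8, 13.6, 17.98 and 9.39 FPKM at 2 weeks and 2.08, 1.52, 1.01 and 1.09 FPKM at 10 weeks, a change of −2.63 (SE 0.23, adjusted p = 0.000646). Actc1, the cardiac actin that developing skeletal muscle also makes, held 33.1, 5.5, 10.2 and 3.85 FPKM and then 0.409, 0.238, 0.51 and 0.807 FPKM, a change of −2.83 (SE 0.52, adjusted p = 0.0189). Every 10 week library was lower than every 2 week library for both, as the choice of the 12 falls required. Sln, a regulator of the muscle calcium pump, changed by −2.74 (SE 0.30, adjusted p = 0.00175), the calcium store protein Casq2 by −2.53 (SE 0.31, adjusted p = 0.00269), Apobec2, a muscle protein of the deaminase family, by −2.46 (SE 0.25, adjusted p = 0.00118), and Tceal7, a regulator of muscle differentiation, by −2.53 (SE 0.51, adjusted p = 0.0265). Actc1 was not called without 2 week replicate 3, or 10 week replicates 1, 2 or 3 (adjusted p = 0.0593 to 0.068) and Tceal7 not without 2 week replicate 3, or 10 week replicates 1, 2, 3 or 4 (adjusted p = 0.0578 to 0.0908). How far ear specimens of the ages differed in the muscle they contained was not tested beyond these markers.

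**Figure D3:**
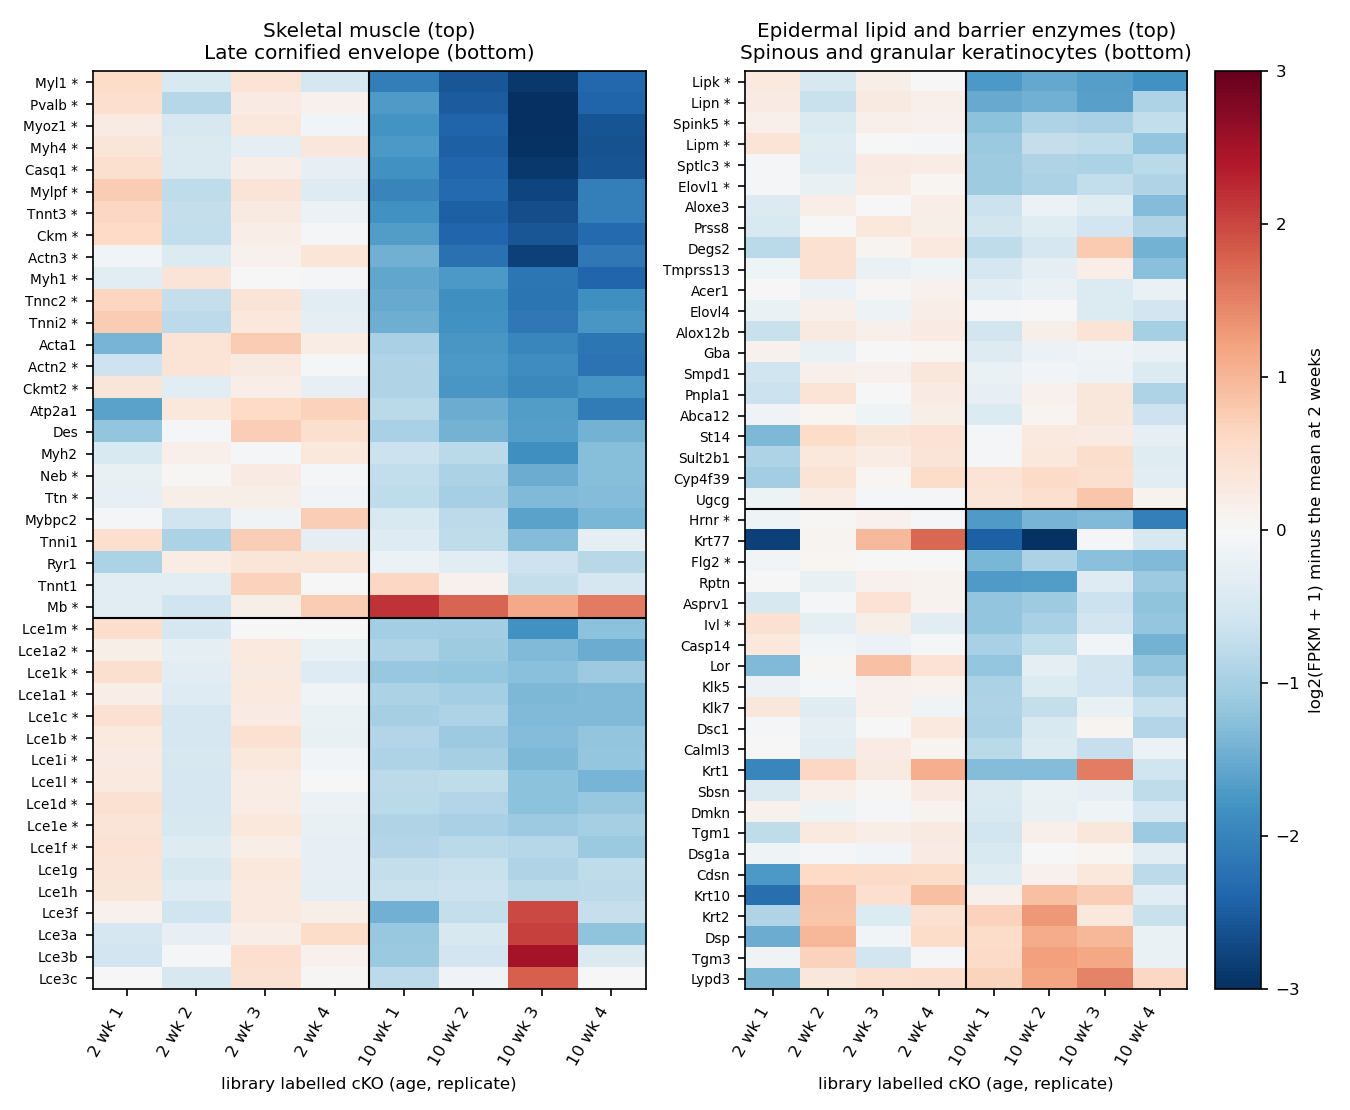
Level of skeletal muscle and late cornified envelope genes (left) and of epidermal lipid, barrier and differentiation genes (right) in each of the 8 libraries labelled cKO, as log2(FPKM + 1) minus the gene's mean at 2 weeks, with colours clipped at −3 and 3. Columns are libraries and asterisks mark called genes (limma, adjusted p under 0.05). Most muscle and Lce1 genes are lower in all 4 libraries of 10 weeks, Mb is higher, and 10 week replicate 3 is high in the Lce3 genes.

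The other 5 of the 12 largest falls were Krt84, Btc, Kcne1l, H19 and Serpinb6e. Krt84, a keratin of hair and nail, held 9.02, 27.4, 18.7 and 9.61 FPKM at 2 weeks and 0.718, 0.756, 0.51 and 0.19 FPKM at 10 weeks, a change of −3.36 (SE 0.34, adjusted p = 0.00118), and was the single called gene among 14 tested markers of the hair shaft and follicle. Btc, the EGF receptor ligand betacellulin, held 34.5, 25.9, 26.4 and 19.1 FPKM and then 2.01, 2.35, 1.75 and 1.76 FPKM, a change of −3.19 (SE 0.20, adjusted p = 0.000111). Kcne1l, a potassium channel subunit, changed by −3.02 (SE 0.26, adjusted p = 0.000634). Lack of overlap between the ages was a condition of the choice, and each of these 3 was called whichever library was left out. H19, an imprinted RNA of growing tissue, held 50.02, 90.6, 129.8 and 72.6 FPKM and then 5.61, 2.73, 15.4 and 33.2 FPKM, a change of −2.92 (SE 0.63, adjusted p = 0.033). Serpinb6e, a serine protease inhibitor, held 41.7, 28.7, 42.5 and 14.9 FPKM and then 0.284, 0.219, 1.5 and 8.95 FPKM, a change of −3.62 (SE 0.65, adjusted p = 0.0163). H19 was not called without 2 week replicates 2, 3 or 4, or 10 week replicates 1, 2 or 3 (adjusted p = 0.0529 to 0.105) and Serpinb6e not without 2 week replicate 3, or 10 week replicates 1, 2 or 3 (adjusted p = 0.0536 to 0.0591).

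Matrix and cartilage gave few calls. Among 18 matrix proteases and inhibitors 2 rose and 0 fell, beside 2.36% and 2.06% of all genes. Among the rises Adamts4, an aggrecan-cleaving protease, held 0, 0.488, 0.343 and 0.423 FPKM at 2 weeks and 9.6, 8.44, 14.2 and 2.56 FPKM at 10 weeks, a change of 2.72 (SE 0.40, adjusted p = 0.00704). Adamts4 passed the filter through 10 week libraries alone, so the filter bears on the count of 2. It did not overlap between the ages and was called whichever library was left out. The count of 2 became 4 without 2 week replicates 1 or 2. Of 14 cartilage genes 2 rose and 0 fell. Comp, a matrix protein of cartilage and tendon, held 0.423, 3.86, 3.16 and 4.18 FPKM and then 40.9, 19.2, 19.1 and 23.5 FPKM, a change of 2.86 (SE 0.43, adjusted p = 0.00797), and Matn3, a matrilin, changed by 2.58 (SE 0.42, adjusted p = 0.0119). The cartilage collagen Col2a1 was not called (−0.09, SE 0.61, adjusted p = 0.937). Among genes of fibroblasts and collagens 0 of 22 were called, with a median change of 0.20 that turned to −0.05 without 2 week replicate 1 and was 0.38 without 2 week replicate 2, 0.31 without 10 week replicate 2 and 0.13 without 10 week replicate 4. Without single libraries the list held 2 falls (2 week replicate 1), 1 fall (10 week replicate 4) or 1 rise (2 week replicate 2).

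Among 6 erythroid genes 1 fell, beside 2.06% of all genes. It was Alas2, the first enzyme of haem synthesis in red cell precursors, with 17.9, 11.4, 23.7 and 11.1 FPKM at 2 weeks and 4.29, 2.81, 7.28 and 5.88 FPKM at 10 weeks (change −1.48, SE 0.31, adjusted p = 0.0309). The haemoglobin genes Hba-a1 (−1.76, SE 0.44, adjusted p = 0.0602) and Hbb-b1 (−1.71, SE 0.45, adjusted p = 0.0717) lay lower in every 10 week library and were not called. Alas2 was not called without 2 week replicates 3 or 4, or 10 week replicates 1, 2 or 4 (adjusted p = 0.0538 to 0.1), so the count became 0 without 2 week replicates 3 or 4, or 10 week replicates 1, 2 or 4 and 4 without 2 week replicate 2, and the summed level of the list was 2727 to 7479 FPKM at 2 weeks and 696 to 2131 FPKM at 10 weeks. In the type 2 cytokine list 1 of 11 tested genes rose, beside 2.36% of all genes. The rise was that of the eosinophil chemokine Ccl24 (1.5, SE 0.29, adjusted p = 0.0209), which was not called without 2 week replicates 3 or 4, or 10 week replicates 1 or 2 (adjusted p = 0.057 to 0.0738). The count became 0 without 2 week replicates 3 or 4, or 10 week replicates 1 or 2 and 4 without 2 week replicate 1. No gene was called in the lists of adipocytes, sebaceous gland, melanocytes, nerve, cell cycle, nuclear respiratory chain and cytoplasmic ribosomal proteins, which had 14, 20, 10, 11, 30, 32 and 36 tested members. The number that fell in the sebaceous list was 1 without 10 week replicate 4 and 2 without 2 week replicate 1, and in the melanocyte list it was 1 without 2 week replicates 1 or 2.

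**Figure D4:**
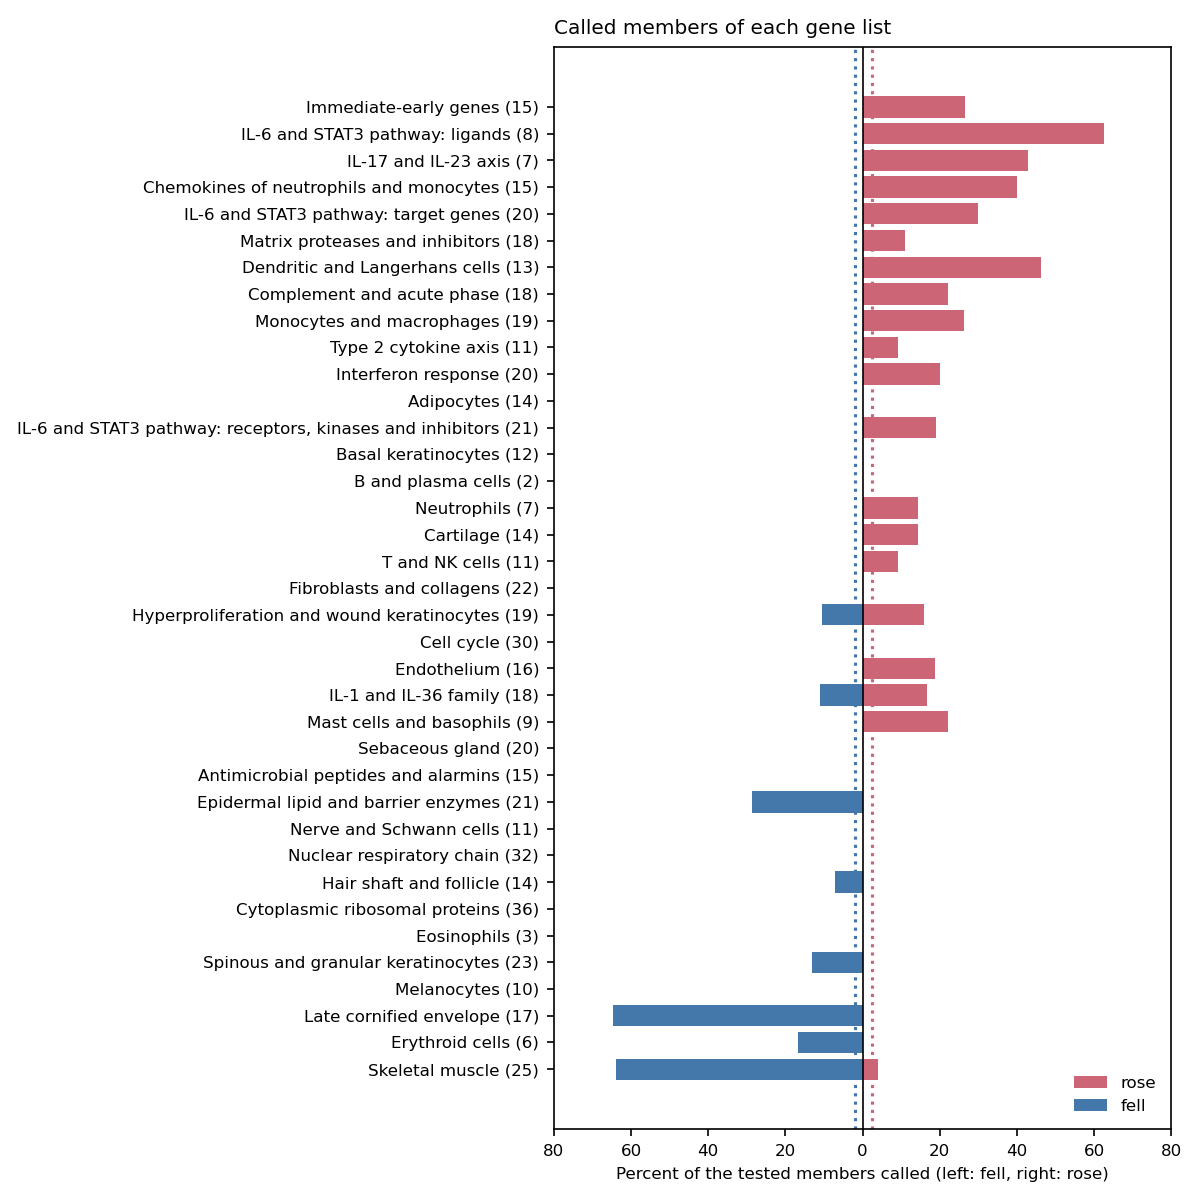
Percent of tested members of each gene list that rose or fell between 2 and 10 weeks in the libraries labelled cKO (limma, adjusted p under 0.05), ordered by the median change of the list, with the number tested in parentheses. Dotted lines mark the share of all tested genes that rose (2.36%) and fell (2.06%). Rises stand highest in the ligands of the IL-6 and STAT3 pathway and falls in the late cornified envelope and skeletal muscle lists. Members near 0 at 2 weeks, such as Osm and Il24, entered the ligand list through 10 week libraries alone.

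Whether these changes differed from those of WT ears was tested as the difference of the changes, (10 weeks minus 2 weeks in the libraries labelled cKO) minus (10 weeks minus 2 weeks in WT), over 15 libraries. Of 13937 genes tested 6811 (48.9%) differed, 5029 with a higher and 1782 with a lower change in the libraries labelled cKO. With median-of-ratios scaling the split was 3485 higher and 2937 lower, and the median difference moved from 0.44 to 0.07. The WT libraries of 10 weeks stood apart from the others, since olfactory and vomeronasal receptor genes were above 0 for 53.6%, 35% and 74.2% of such genes there, against 3.33% to 7.32% in the other 12. Eif2s3y held 0, 0, 0.0458 and 35.95 FPKM in WT at 2 weeks and 0, 0 and 1.85 FPKM at 10 weeks. The WT groups thus lack the balance of the sexes seen in the libraries labelled cKO. A difference from WT therefore cannot be told apart from what sets the 3 WT libraries of 10 weeks off, or from a difference in sex. The genes below were also picked for their change in the libraries labelled cKO.

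Of the 12 largest rises 10 differed from WT, all 10 higher in the libraries labelled cKO both as deposited and with scaling. Il6 held 0.0884, 0.0665, 0.162 and 0.0781 FPKM in WT at 2 weeks and 0.619, 0.0801 and 0.0696 FPKM at 10 weeks, and its change exceeded that of WT by 5.30 (SE 0.44, adjusted p = 8.67e-07). Fosl1 held 0.133, 0.411, 0.146 and 0.0695 FPKM in WT at 2 weeks and 0.186, 0.0484 and about 0 FPKM at 10 weeks, a difference of 5.20 (SE 0.30, adjusted p = 2.48e-08). Nr4a1 held 16.8, 14.1, 16.4 and 18.99 and then 4.54, 3.74 and 2.49 FPKM in WT, lower at 10 weeks in every library, and differed by 6.52 (SE 0.61, adjusted p = 2.86e-06). For Socs3 the difference was 4.06 (SE 0.62, adjusted p = 0.00021), since WT changed by −1.46. The 2 exceptions were Spink7 and Akr1c18. Spink7 was high in WT 10 week replicate 1, and without that library it differed by 4.33 (adjusted p = 0.000578). Akr1c18 held 0.484, 1.21, 1.55 and 0.855 FPKM in WT at 2 weeks and 127, 35.97 and 5.96 FPKM at 10 weeks, a change of 4.01, and the difference was −0.01 (SE 1.24, adjusted p = 0.996).

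Among the 12 largest falls 8 differed from WT, 6 with a lower change in the libraries labelled cKO. The other 2, H19 and Myh8, fell less there than in WT. H19 held 389, 440.3, 405 and 384 FPKM in WT at 2 weeks and 4.03, 6.49 and 8.03 FPKM at 10 weeks, and differed by 2.94 (SE 0.75, adjusted p = 0.00566). Myh8 differed by 1.19 (SE 0.35, adjusted p = 0.0127), which was not called with scaling (0.86, adjusted p = 0.0722). Sln held 14.6, 18.6, 10.9 and 16.4 FPKM in WT at 2 weeks and 22.3, 29.1 and 35.6 FPKM at 10 weeks, higher in every library, while it fell in the libraries labelled cKO, and differed by −3.64 (SE 0.39, adjusted p = 1.12e-05). Apobec2 differed by −3.06 (SE 0.33, adjusted p = 1.15e-05), Myl1 by −2.44 (SE 0.41, adjusted p = 0.000436), Kcne1l by −2.36 (SE 0.34, adjusted p = 0.000156), Tceal7 by −2.14 (SE 0.63, adjusted p = 0.0128) and Btc by −1.18 (SE 0.30, adjusted p = 0.00609). Krt84 was lower at 10 weeks in both genotypes, where WT held 0.359, 0 and 0.311 FPKM after 20.9, 18.9, 28.4 and 20.4 FPKM at 2 weeks, and its difference of 0.88 (SE 0.42, adjusted p = 0.0919) was not called. Actc1 was lower at 10 weeks in both genotypes too, with a difference of 0.04 (SE 0.62, adjusted p = 0.958). Casq2, with a difference of −0.87 (SE 0.36, adjusted p = 0.0608), was not called as deposited but was with scaling (−1.22, adjusted p = 0.0268). In WT the mean also changed downward for Serpinb6e (−2.49), Btc (−2.01), Casq2 (−1.67), Kcne1l (−0.66), Tceal7 (−0.39) and Myl1 (−0.04). In WT it changed upward for Sln (0.90) and Apobec2 (0.60). Leaving out a library of those labelled cKO added calls of Casq2 (−0.98 to −1.06 without 2 week replicates 2 or 4, or 10 week replicate 4), Krt84 (1.17 without 2 week replicate 2) and Serpinb6e (−1.80 without 10 week replicate 4).

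**Figure D5:**
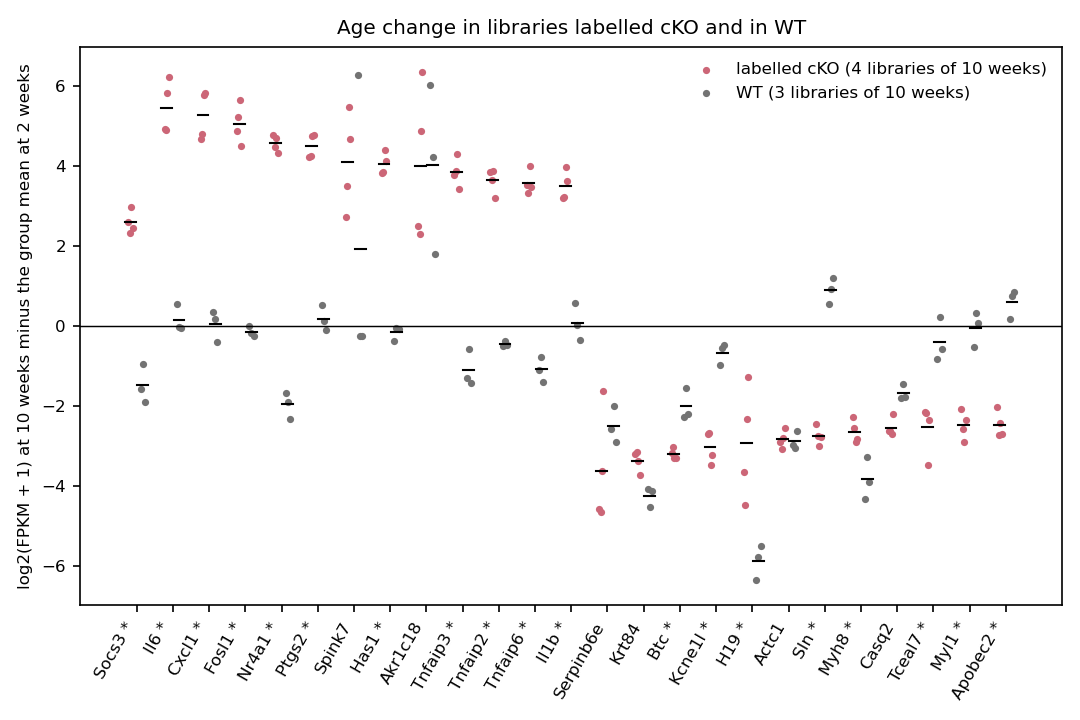
Each 10 week library minus the mean of its genotype at 2 weeks, on the log2(FPKM + 1) scale, for Socs3 and the 12 largest rises and 12 largest falls, with libraries labelled cKO in red (n = 4) and WT in grey (n = 3) and ticks at the means. Asterisks mark genes whose change differed between the genotypes (limma, adjusted p under 0.05). Points of the genotypes lie apart for most rises, while for Akr1c18 both genotypes lie above 0. Among the falls the WT mean lies below 0 too, except for Sln and Apobec2, and is near 0 for Myl1.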

How the data were processed

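The submitters sequenced total RNA, extracted with TRIzol from ear specimens, as unstranded 50-base single reads from TruSeq libraries, per the labels' protocols. The authors deposited FPKM per gene and library. Per the submitters' processing notes, TopHat2 2.1.0 and Cufflinks with mm9 made them, with a Cufflinks version not given in the sources used here. Tables without counts leave the depth unknown, so no counting interval is given. Reads of overlapping or antisense genes, and of near-identical copies, cannot be told apart.

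The 8 libraries labelled cKO at 2 and 10 weeks were fitted with limma 3.58.1 (R 4.3.3, eBayes with an intensity trend) on log2(FPKM + 1), over genes of at least 1 FPKM in at least 3 libraries, with Benjamini-Hochberg adjustment over all of them. The difference from WT came from a fit of 15 libraries in 4 groups. Socs3 had an exact permutation test. Python 3.11.15 (numpy 2.4.6, pandas 2.3.3, matplotlib 3.10.9) drew figures and searched promoters. The scripts were tested on simulated data. Gene lists are described by counts and medians, with no test of a list. The members and lists were chosen with earlier results of these data known. Named by rule were Socs3, the 12 largest rises and 12 largest falls among called genes without overlap between the ages (passing over unnamed gene models and small RNA genes), the 3 most changed called members of each list, and a set of keratin, cytokine and alarmin genes with Stat3. Some list members are counted but not reported here by name. All other genes shown were chosen after their values were seen. Alternatives were a pseudocount of 0.1, no filter or one at 5 FPKM, median-of-ratios scaling, array weights, a replicate block, all 6 groups in the fit, Eif2s3y as a covariate, no trend, a change of at least 1, and each library left out.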

Additional observations from a re-analysis of the deposited data

Results flagged for a closer look

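In 350 groups of 4 libraries looked at, 25 held a library whose gap to the nearest other library, as a share of the range of log2(FPKM + 1), passed Dixon's 95% limit. Chance gives about 1 in 20 such groups. The groups are of genes described here, many of them chosen after their values were seen. Some genes, such as Krt6a, Krt6b and Krt16, share the same high library. The count of 25 therefore cannot be weighed against that share. The 10 week replicate 3 was the high library for Krt6b (0.963 of the range), Krt16 (0.946), Krt6a (0.929), S100a8 (0.841), Irf7 (0.974), Isg15 (0.839) and Cish (0.897), and the low one for Tceal7 (0.845) and Csrp3 (0.842). The 2 week replicate 1 was the low library for Bcl3 (0.963), Relb (0.928), Ctf1 (0.921), Krt10 (0.871), Nfil3 (0.835) and Comp (0.83). The 2 week replicate 2 was low for Spink5 (0.926) and Lipn (0.886) and high for Saa3 (0.932). The 10 week replicate 4 was high for Mcpt4 (0.934), Il10 (0.891) and Casq2 (0.845) and low for Myc (0.885). The remaining 3 were Il24, which was above 0 in 2 week replicate 3 alone (1 of the range), Rian, low in 10 week replicate 2 (0.904), and Ptgs2, low in 2 week replicate 4 (0.88).

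The change with age differed from that of WT, by the limma test of the difference, for 19 of the 25 genes compared, beside 48.9% of all genes tested. On the log2(FPKM + 1) scale the libraries labelled cKO changed more upward for Nr4a1 (6.52), Il6 (5.30), Cxcl1 (5.22), Fosl1 (5.20), Tnfaip3 (4.94), Tnfaip6 (4.67), Ptgs2 (4.31), Has1 (4.21), Tnfaip2 (4.08), Socs3 (4.06), Il1b (3.43), H19 (2.94) and Myh8 (1.19). They changed more downward for Sln (−3.64), Apobec2 (−3.06), Myl1 (−2.44), Kcne1l (−2.36), Tceal7 (−2.14) and Btc (−1.18). These genes were picked for their change in the libraries labelled cKO, and the 3 WT libraries of 10 weeks stood apart from the others. The sexes were also not balanced alike in the genotypes, as given above.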

How the results depend on the processing

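The 582 calls became 384 with a filter at 5 FPKM, 6120 with array quality weights (0.0849 to 5.66 per library), 892 with all 6 groups in the fit and 230 without 2 week replicates 2 and 3, an alternative chosen after the values were seen. Leaving out 1 library gave 228 to 1010. A pseudocount of 0.1, no filter, scaling, an Eif2s3y covariate, no trend and a change of at least 1 gave 401 to 611. With the replicate number as a block 218 genes were called. Same-numbered libraries correlated in their deviations at −0.108, 0.315, −0.0157 and −0.166, and 1 of 4 correlated best with its own number. These 4 correlations cannot settle whether the numbers pair the libraries. Replicates 1 and 2 were high in Eif2s3y and replicates 3 and 4 in Xist at both ages. Socs3 kept its direction under every alternative run, at 2.11 to 2.97 without 1 library. It was not called without 2 week replicate 4 (2.44), or 10 week replicates 1 (2.59), 2 (2.68), 3 (2.46) or 4 (2.64). The 6811 differences from WT stayed within 1.5 times that count under every alternative run, at 5403 to 9928. The split of 311 higher and 271 lower turned to 494 and 516 without 2 week replicate 1 and to 2853 and 3267 with array weights, where the median change of all genes was −0.03 and −0.02. No call of a gene named by the rule turned its direction under the alternatives run. The other genes shown were looked at singly only with scaling and with each library left out. The cause of these shifts was not tested, beyond the smaller number of genes or libraries that some alternatives leave. FPKM without counts do not show which weak genes are limited by depth.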

Other observations

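Of 15 feedback inhibitors, targets and subunits of NF-kB not described above, chosen after the values were seen and so with no test of the list, 11 rose and 0 fell, beside 2.36% of all genes that rose. Nfkbia, which encodes the inhibitor that holds NF-kB in the cytoplasm, held 48.8, 75.5, 41.96 and 41.7 FPKM at 2 weeks and 318, 331, 387 and 197 FPKM at 10 weeks, a change of 2.55 (SE 0.26, adjusted p = 0.00136). Zc3h12a, an RNase that degrades cytokine messages, held 1.22, 8.4, 5.41 and 4.06 FPKM and then 35.9, 39.5, 57.01 and 23.5 FPKM, a change of 2.90 (SE 0.43, adjusted p = 0.0078). Tnf itself held 1.09, 1.92, 1.77 and 1.04 FPKM and then 3.98, 6.43, 7.5 and 5.01 FPKM, a change of 1.45 (SE 0.22, adjusted p = 0.00803). These 3 did not overlap between the ages and were called whichever library was left out. The subunits Nfkb1 (0.73, SE 0.30, adjusted p = 0.215) and Relb (1.0, SE 0.32, adjusted p = 0.127) were not called. Of the 11 rises, 5 were called without 10 week replicates 1, 2 or 3, and 6 without 2 week replicate 3.

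Ligands of the EGF receptor were also looked at after the values were seen. Of 6 tested, 4 rose and 1, Btc, fell, beside 2.36% and 2.06% of all genes. Besides Hbegf, Areg and Ereg the fourth rise was Epgn (1.12, SE 0.22, adjusted p = 0.0249), and Tgfa was not called (−0.05, SE 0.31, adjusted p = 0.937). Errfi1, an inhibitor that the receptor induces, held 14.1, 26.8, 23.9 and 21.9 FPKM at 2 weeks and 149.9, 111, 94.9 and 102 FPKM at 10 weeks, a change of 2.36 (SE 0.23, adjusted p = 0.00104) called whichever library was left out. Egfr, the receptor, was not called (0.56, SE 0.19, adjusted p = 0.141). Epgn was not called without 2 week replicate 3, or 10 week replicates 1, 2, 3 or 4 (adjusted p = 0.0519 to 0.0905), and 2 of the 4 rises were called without 10 week replicates 2 or 3.

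Genes of developing, slow or cardiac muscle, chosen after the values were seen, rose for 3 of 20 tested and fell for 11, beside 2.36% and 2.06% of all genes. The rises were Mb, Myl2 and Myl3. Myl2, the regulatory light chain of slow fibres and heart ventricle, held 1.25, 0.563, 3.19 and 4.31 FPKM at 2 weeks and 36.3, 21.2, 6.75 and 21.1 FPKM at 10 weeks, a change of 2.71 (SE 0.52, adjusted p = 0.022). Myl3, the essential light chain of the same fibres, held 0.29, 0.261, 0.0858 and 0.627 FPKM and then 7.43, 2.9, 2.09 and 2.92 FPKM, a change of 1.78 (SE 0.30, adjusted p = 0.0124). Both were higher in every 10 week library. Myl3 was called whichever library was left out, and Myl2 was not called without 2 week replicate 3, or 10 week replicates 1, 2 or 4 (adjusted p = 0.0515 to 0.0737). The count of 3 became 1 without 2 week replicate 3, or 10 week replicates 1, 2 or 4. Other genes of slow fibres and heart went the other way or were not called. Tnnt2, the cardiac troponin T, fell (−1.01, SE 0.15, adjusted p = 0.00802), as did Csrp3, a protein of the Z line (−1.95, SE 0.28, adjusted p = 0.00703), and Tnnc1 (−0.79, SE 0.45, adjusted p = 0.364), Tnni1 (−0.69, SE 0.39, adjusted p = 0.361) and Myl4 (−0.66, SE 0.35, adjusted p = 0.338) were not called. The falls also included Myh3, the embryonic myosin heavy chain (−1.53, SE 0.33, adjusted p = 0.032, not called without 2 week replicates 3 or 4, or 10 week replicates 3 or 4 (adjusted p = 0.0643 to 0.105)), and Myf6, a transcription factor of the muscle lineage (−1.48, SE 0.24, adjusted p = 0.011). The 11 falls became 7 without 2 week replicate 3 or 10 week replicate 3.

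Genes of the circadian clock and its outputs rose for 7 of 18 tested and fell for 0, beside 2.36% of all genes that rose, again in a list chosen after the values were seen. Bhlhe40, a repressor of the clock that many stimuli induce, held 11.6, 21.5, 16.5 and 13.3 FPKM at 2 weeks and 117, 101, 129 and 95.8 FPKM at 10 weeks, a change of 2.77 (SE 0.21, adjusted p = 0.000273). Nfil3, an output repressor that also acts in immune cells, changed by 2.25 (SE 0.30, adjusted p = 0.00455) and Gm129, a repressor of the clock also known as Chrono, by 1.92 (SE 0.19, adjusted p = 0.00118). These 3 were called whichever library was left out. Per1 held 3.76, 19.9, 15.7 and 12.4 FPKM and then 61.9, 53.9, 54.2 and 42.4 FPKM, a change of 2.13 (SE 0.41, adjusted p = 0.0216). Arntl, which drives the clock, was not called (−0.51, SE 0.25, adjusted p = 0.293). Per1 was not called without 2 week replicate 4, or 10 week replicates 1, 2 or 3 (adjusted p = 0.0606 to 0.0738). The count of 7 became 3 without 2 week replicate 4 or 10 week replicates 1, 2 or 3, and 11 without 2 week replicate 2. The labels used here give no hour of collection.

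In a list of imprinted growth genes together with Igf2bp3, 5 of 15 tested fell and 0 rose, beside 2.06% of all genes that fell. Igf2bp3 is 1 of the 5, and the list was chosen in the same way. Slc38a4, an amino acid transporter, held 15.4, 9.17, 11.8 and 11.9 FPKM at 2 weeks and 1.53, 1.39, 1.34 and 2.31 FPKM at 10 weeks, a change of −2.30 (SE 0.20, adjusted p = 0.00064) called whichever library was left out. Mirg, a long RNA of the Dlk1 cluster, changed by −1.10 (SE 0.18, adjusted p = 0.0132) and Rian, another, by −0.98 (SE 0.22, adjusted p = 0.0425). Igf2bp3, a fetal RNA-binding protein that is grouped here with its target Igf2, changed by −1.11 (SE 0.17, adjusted p = 0.00831) and was below the filter without 2 week replicates 1, 2 or 3. Mirg was not called without 10 week replicates 2 or 3 (adjusted p = 0.0511 to 0.0551) and Rian not without 2 week replicates 2 or 3, or 10 week replicates 1, 2, 3 or 4 (adjusted p = 0.0605 to 0.136) or with scaling (adjusted p = 0.0646). Igf2 held 28.6, 59.7, 95.3 and 55.8 FPKM and then 26.1, 25.04, 36.9 and 62.3 FPKM and was not called (−0.64, SE 0.39, adjusted p = 0.391). The count of 5 became 2 without 2 week replicates 2 or 3 or 10 week replicates 2 or 3, and 3 without 10 week replicate 1.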
